A study of Rattus norvegicus with 6 samples.

Results

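Inhibitory transmission by glycine and GABA was described from 9 genes of the deposited table, chosen by gene symbol from 22050 listed genes. They encode the enzymes that make GABA (*Gad1*, *Gad2*) and the transporters that load and recover the transmitters (*Slc32a1*, *Slc6a5*). The others encode subunits of the glycine receptor (*Glra1*, *Glra3*, *Glrb*), the scaffold beneath the receptors (*Gphn*) and the cotransporter that keeps neuronal chloride low (*Slc12a5*). RNA-seq libraries were made from tissue labelled spinal cord of male Sprague–Dawley rats, 3 from sham-operated rats and 3 from SNI-NP rats, in which spared nerve injury (SNI) was used to induce neuropathic pain (NP). The sham rats are the surgical control and carry no further treatment, and the sources used here give neither the time after surgery nor the cord segment sequenced. Each library was counted as 1 replicate, so the p-values measure the spread between libraries, and the labels do not say whether a library held RNA of 1 rat or of several.

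In the spinal cord, glycine and GABA are the fast inhibitory transmitters, and many inhibitory neurons of the dorsal and ventral horns release both. Each opens a chloride channel, and the current is inhibitory as long as the potassium-chloride cotransporter KCC2, the product of *Slc12a5*, holds intracellular chloride down. Loss of this inhibition in the dorsal horn is a long-studied feature of nerve injury pain, which is the question that the comparison of SNI-NP with sham rats bears on for these genes.

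The depth was 16670760 to 18151156 counts per library. Levels are given as CPM (counts scaled to one common library size, with TMM factors of 0.958 to 1.04). Genes of other cell types were abundant in this tissue: *Prx*, the periaxin gene of myelinating Schwann cells in peripheral nerve, was at 4032 to 6419 CPM in the 6 libraries, and *Mbp*, a myelin gene of oligodendrocytes and Schwann cells, at 25760 to 34303 CPM. Genes of dorsal root ganglion neurons were also present, all 9 of the list at levels that passed the filter, and their summed level was 560 to 1576 CPM in 5 libraries and 126 CPM in SNI-NP replicate 1, which stood apart. *Scn10a*, a sodium channel gene of nociceptors, was at 14.3 CPM there and at 88.1 to 277 CPM in the other libraries. *Mog* and *Mobp*, myelin genes of oligodendrocytes little used by Schwann cells, were both highest in Sham replicate 1 (126 and 331 CPM) and low in Sham replicate 2 (41.0 and 108 CPM), so the share of central tissue markers differed between libraries of the same group.

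Promoter sequences of 4 of the genes are shown as examples of the roles in the group, *Gad1* for GABA synthesis, *Slc6a5* for glycine uptake, *Slc32a1* for the loading of both, and *Glrb* because its libraries did not overlap between the groups. The sequences are those of RefSeq on the build GRCr8, from 250 bases before to 50 bases after the annotated start of the gene, and 8 of the 9 genes matched an entry (*Glra1* had none). They are written 5′ to 3′, with capitals for 3 motifs searched on both strands, which were the TATA box as TATAAA, the E-box of basic helix-loop-helix factors as CANNTG and the GC box as GGGCGG.
*Gad1* (chr3:75777202-75777501, plus strand): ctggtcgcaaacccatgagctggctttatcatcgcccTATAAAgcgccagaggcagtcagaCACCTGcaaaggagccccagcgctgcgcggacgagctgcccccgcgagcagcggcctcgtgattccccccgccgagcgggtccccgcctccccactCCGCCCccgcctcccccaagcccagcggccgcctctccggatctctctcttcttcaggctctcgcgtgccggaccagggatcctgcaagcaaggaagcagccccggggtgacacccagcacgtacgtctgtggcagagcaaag
*Slc6a5* (chr1:108781303-108781602, plus strand): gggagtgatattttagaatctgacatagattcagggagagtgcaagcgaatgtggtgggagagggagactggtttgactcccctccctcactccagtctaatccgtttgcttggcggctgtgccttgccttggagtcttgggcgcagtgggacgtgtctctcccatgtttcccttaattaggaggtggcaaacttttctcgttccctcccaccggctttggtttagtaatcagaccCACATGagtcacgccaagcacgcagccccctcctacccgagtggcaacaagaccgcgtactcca
*Slc32a1* (chr3:167686995-167687294, plus strand): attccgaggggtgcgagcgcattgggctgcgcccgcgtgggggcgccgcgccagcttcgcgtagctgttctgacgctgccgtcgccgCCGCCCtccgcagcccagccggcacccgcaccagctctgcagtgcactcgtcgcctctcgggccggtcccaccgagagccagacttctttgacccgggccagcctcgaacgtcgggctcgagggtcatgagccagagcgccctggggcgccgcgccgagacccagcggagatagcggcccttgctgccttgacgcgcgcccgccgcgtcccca
*Glrb* (chr2:168505565-168505864, minus strand): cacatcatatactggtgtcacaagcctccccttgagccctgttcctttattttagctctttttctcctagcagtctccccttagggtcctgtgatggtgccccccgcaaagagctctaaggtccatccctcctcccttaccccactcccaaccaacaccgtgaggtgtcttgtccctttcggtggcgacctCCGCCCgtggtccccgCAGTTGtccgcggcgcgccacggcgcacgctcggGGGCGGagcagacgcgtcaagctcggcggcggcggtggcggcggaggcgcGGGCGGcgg

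All 8 promoters held more CpG dinucleotides than the median of 7 over 27457 promoters of the same length, from 10 in *Glra3*, more than 55.9% of all promoters held, to 42 in *Slc32a1*, more than 97.5% held. A GGGCGG motif was present in 6 of the 8, against 34.9% of all promoters, and *Glrb* held 3 of them. CANNTG was found in 5 of the 8, against 71.6% of all promoters, and TATAAA in 1, that of *Gad1*, against 14.3%. No 2 matches overlapped, and they describe the letters of the window only.

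Compared per length, *Slc12a5* was the most abundant of the 9 genes, with a mean of 26.8 FPKM over the 6 libraries (fragments per kilobase, as deposited, which allows levels of different genes to be compared). *Glrb* (17.3 FPKM), *Slc6a5* (17.2 FPKM) and *Slc32a1* (16.2 FPKM) followed close together. *Glrb* was above *Slc6a5* in 4 of 6 libraries and *Slc6a5* above *Slc32a1* in 3 of 6, so these neighbours were not separated, whereas *Slc12a5* was above *Glrb* in 6 of 6. *Gad1* was at 12.6 FPKM and below *Slc32a1* in 5 of 6 libraries, and *Gphn* (9.25 FPKM) and *Glra1* (8.16 FPKM) exchanged places in 2 of 6. *Gad2* was at 5.202 FPKM and *Glra3* was nearly absent at 0.14 FPKM.

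**Figure D1:**
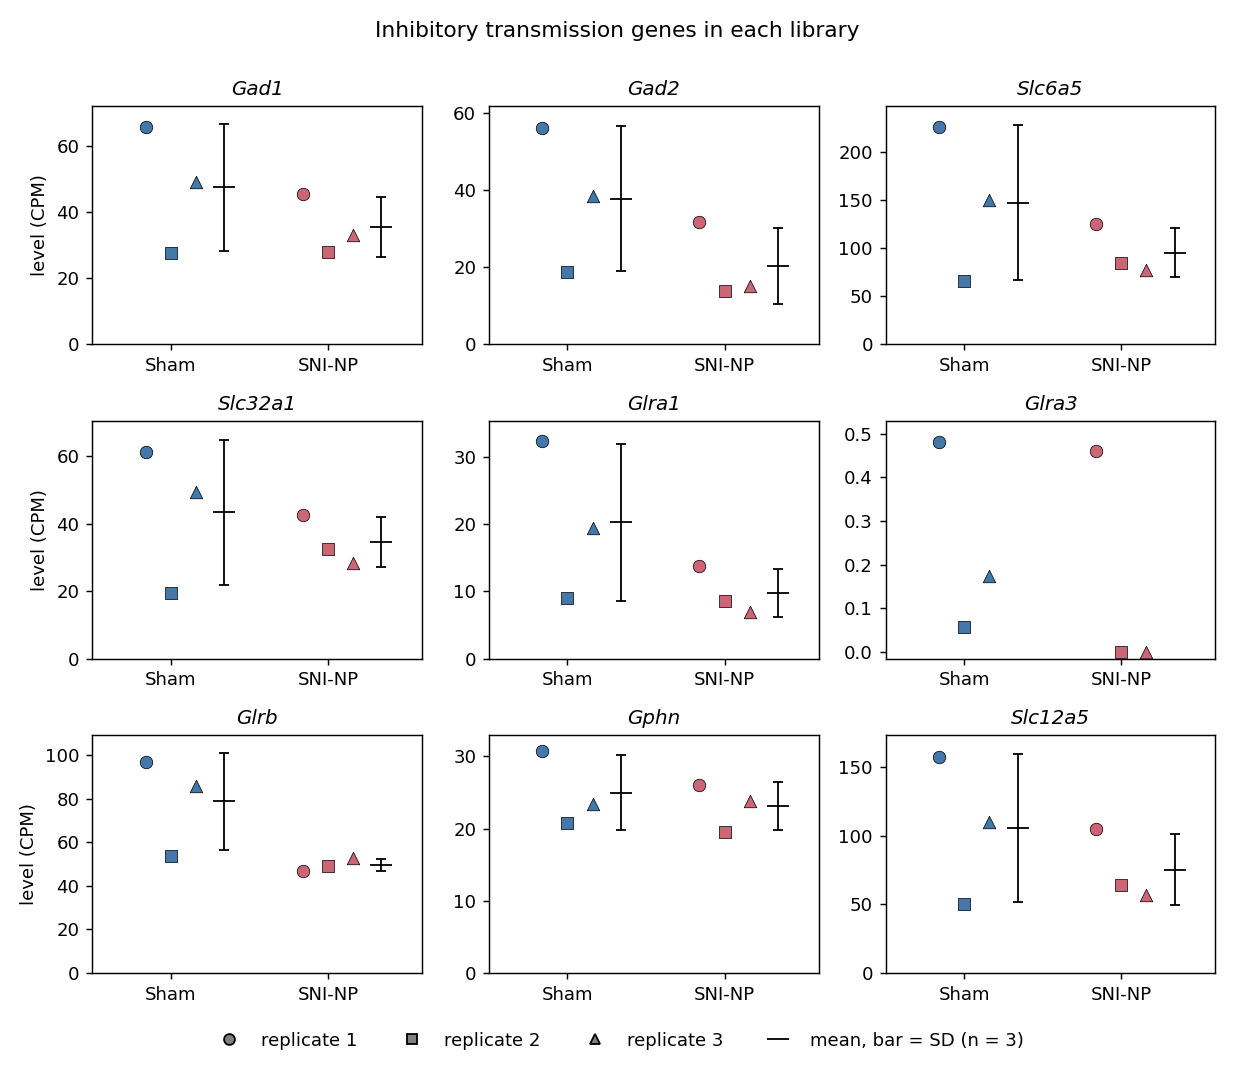
Level of each of the 9 genes in the 6 libraries, in CPM on a linear axis, with circles, squares and triangles for replicates 1, 2 and 3 and a black mark for the group mean with its SD (n = 3, not drawn for *Glra3*). Sham replicate 1 was the highest library for all 9 genes, Sham replicate 2 the lowest sham library for all 9, and only in *Glrb* did every SNI-NP library lie below every sham library.

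The main comparison asked whether these genes differed between SNI-NP and sham rats. All 8 genes that were tested had a lower mean in SNI-NP rats, with log2 fold changes from -1.06 to -0.11 (median -0.56, against 0.01 over all genes tested), but the groups overlapped for 7 of them. None of the 8 passed an adjusted p-value of 0.05 in edgeR (quasi-likelihood, Benjamini-Hochberg over 14426 genes), and the share of all genes that did was 0%. At an unadjusted p-value under 0.05, 1 of the 8, *Glrb*, was lower, against 5.94% of all genes that were lower at that threshold. A negative sign alone was found for 49.1% of all genes, and since the 8 genes shared their rise and fall between libraries, their common sign is not 8 independent results. In bulk tissue a smaller number of inhibitory neurons and less RNA in each of them cannot be told apart.

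*Gad1* (ENSRNOG00000000007) and *Gad2* (ENSRNOG00000018200) encode the 2 glutamate decarboxylases, the first supplying GABA throughout the cell and the second attached to synaptic vesicles at the terminal. The level of *Gad1* was 65.9, 27.6 and 49.2 CPM in sham replicates 1 to 3 and 45.4, 27.9 and 33.2 CPM in SNI-NP replicates 1 to 3. The lowest library of all was a sham library, so the groups overlapped. The fitted change was -0.42 ± 0.32 (log2 ± SE, adjusted p = 0.626 in edgeR). *Gad2* was at 56.2, 18.7 and 38.4 CPM in the sham libraries and at 31.7, 13.8 and 15.2 CPM in the SNI-NP libraries. Here SNI-NP replicates 2 and 3 were below every sham library and replicate 1 was above Sham replicate 2. The means were 37.8 ± 18.7 and 20.2 ± 9.94 CPM (SD over 3 libraries each), and the fitted change was -0.90 ± 0.45 (log2 ± SE, adjusted p = 0.497 in edgeR).

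*Slc32a1* (ENSRNOG00000015393) encodes the vesicular transporter that loads both GABA and glycine, and *Slc6a5* (ENSRNOG00000031662) the glycine transporter GlyT2, found on glycinergic terminals. *Slc32a1* was at 61.1, 19.4 and 49.5 CPM in the sham libraries and at 42.6, 32.5 and 28.3 CPM in the SNI-NP libraries. All 3 SNI-NP libraries fell inside the range of the sham libraries. Its means were 43.3 ± 21.5 and 34.5 ± 7.34 CPM (SD over 3 libraries each), and the fitted change was -0.33 ± 0.38 (log2 ± SE, adjusted p = 0.765 in edgeR). *Slc6a5* was at 227.0, 65.6 and 150.1 CPM in the sham libraries and at 124.8, 84.3 and 77.4 CPM in the SNI-NP libraries. The SNI-NP libraries again lay inside the sham range, which spanned 3.46-fold, while the fitted sham level was 1.54-fold that of SNI-NP rats. On the log2 scale this was -0.63 ± 0.41 (SE, adjusted p = 0.580 in edgeR).

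The glycine receptor of the adult cord is built mainly of the ligand-binding alpha1 subunit, from *Glra1*, and the beta subunit, from *Glrb*, which ties the receptor to gephyrin. *Glra1* (ENSRNOG00000013588) was at 32.4, 9.01 and 19.4 CPM in the sham libraries and at 13.8, 8.497 and 6.96 CPM in the SNI-NP libraries. Its levels spread the most of the 8 genes, 4.65-fold between the highest and the lowest library. SNI-NP replicates 2 and 3 were below all sham libraries and replicate 1 was above Sham replicate 2. *Glra1* also had the largest difference of the 8, -1.06 ± 0.46 (log2 ± SE), and its unadjusted p was 0.0532 (adjusted p = 0.463 in edgeR).

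*Glrb* (ENSRNOG00000010199) was at 96.8, 53.8 and 85.7 CPM in the sham libraries and at 46.8, 49.1 and 52.6 CPM in the SNI-NP libraries. Every SNI-NP library was below every sham library, a separation found for 8.15% of all genes tested in this direction, although the gap between the closest libraries was narrow, 52.6 against 53.8 CPM. The means were 78.8 ± 22.3 CPM in sham and 49.5 ± 2.93 CPM in SNI-NP rats (SD over 3 libraries each). The fitted change was -0.67 ± 0.21 (log2 ± SE) with an unadjusted p of 0.0133, which became 0.424 when edgeR's p-values were adjusted over all genes. With each of the 6 libraries left out in turn, the log2 fold change of *Glrb* stayed between -0.88 and -0.51 and its unadjusted p between 1.90e-04 and 0.0370, and the edgeR adjusted p ranged from 0.182 to 0.777.

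*Glra3* (ENSRNOG00000049792), the subunit of a glycine receptor of the superficial dorsal horn that prostaglandin signalling inhibits, had too few counts to be tested. It had 8, 1 and 3 counts in the sham libraries and 8, 0 and 0 in the SNI-NP libraries. A count of 0 allowed a level of up to 0.167 CPM in SNI-NP replicate 2 and 0.174 CPM in replicate 3, as counting error alone sets it, so no difference was detectable at this depth.

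*Gphn* (ENSRNOG00000028366) encodes gephyrin, which anchors glycine and GABA-A receptors and also takes part in molybdenum cofactor synthesis in many tissues. It was at 30.8, 20.8 and 23.4 CPM in the sham libraries and at 26.1, 19.5 and 23.9 CPM in the SNI-NP libraries. This was the steadiest gene of the 8, with 1.58-fold between the highest and the lowest library. Its fitted change was -0.11 ± 0.18 (log2 ± SE, adjusted p = 0.844 in edgeR). *Slc12a5* (ENSRNOG00000018111) was at 156.9, 49.9 and 110.2 CPM in the sham libraries and at 104.9, 64.2 and 56.6 CPM in the SNI-NP libraries. The SNI-NP libraries fell inside the sham range. Its means of 105.7 ± 53.6 and 75.3 ± 25.9 CPM (SD over 3 libraries each) gave a fitted change of -0.49 ± 0.41 (log2 ± SE, adjusted p = 0.661 in edgeR).

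**Figure D2:**
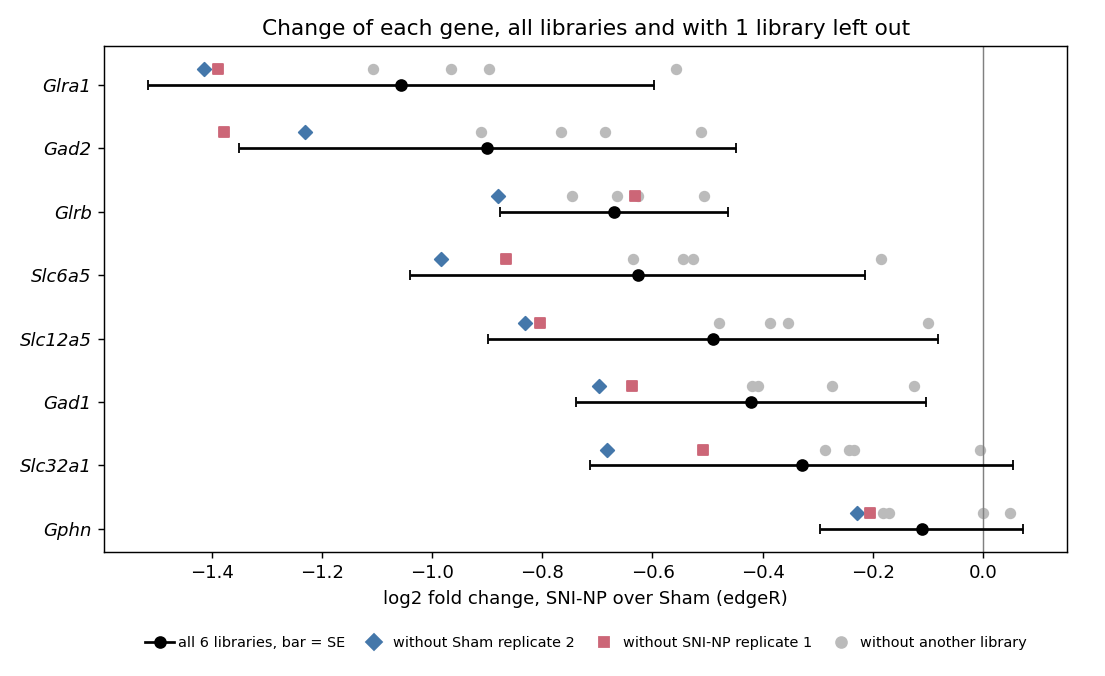
Fitted log2 fold change of the 8 tested genes, SNI-NP over sham; black points with bars are the values from all 6 libraries with their standard errors, and the points above them are fits with 1 library left out. The values without Sham replicate 2 (diamonds) and without SNI-NP replicate 1 (squares) lay farther from 0 than the value from all libraries in every gene but *Glrb*, where the square was slightly nearer to 0.

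The number of genes past the unadjusted threshold moved with the libraries included, while *Glrb* was past it in every fit with 1 library left out. Without Sham replicate 2, 7 of the 8 genes had an unadjusted p-value under 0.05 and were lower, against 8.32% of all genes in that fit; the exception was *Gphn*. The log2 fold changes were then -1.42 for *Glra1*, -1.23 for *Gad2*, -0.98 for *Slc6a5*, -0.88 for *Glrb*, -0.83 for *Slc12a5*, -0.70 for *Gad1* and -0.68 for *Slc32a1*. Adjusted over all genes, 0 of the 8 passed there (0.0137% of all genes did), and the edgeR adjusted p-values of these 7 genes were from 0.182 for *Glrb* to 0.289 for *Slc12a5*. Without SNI-NP replicate 1, the library with few ganglion transcripts, 3 of the 8 (*Gad2*, *Glra1* and *Glrb*) were lower at an unadjusted p-value under 0.05, against 9.52% of all genes, and 0 passed the adjusted threshold, which 1.52% of all genes did. Without Sham replicate 1, the library with the highest levels, 1 of the 8 (*Glrb*) was past the unadjusted threshold, against 4.1% of all genes, and the differences shrank. The log2 fold change was then -0.56 for *Glra1*, -0.51 for *Gad2*, -0.51 for *Glrb*, -0.18 for *Slc6a5*, -0.125 for *Gad1*, -0.10 for *Slc12a5*, -0.005 for *Slc32a1* and 0.05 for *Gphn*. In DESeq2, which the study used, *Gad2*, *Glra1* and *Glrb* were lower at an unadjusted p-value under 0.05 (3 of 8, against 7.19% of all genes), and 0 of the 8 passed after adjustment, which 1.46% of all genes did. The same 3 genes were past the unadjusted threshold with the replicate number as a term in edgeR, against 6.04% of all genes.

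The 8 genes agreed on the highest library and differed in the order of the others. All 8 were highest in Sham replicate 1, which held for 18.1% of all genes tested. In 7 of 8 the next highest was Sham replicate 3 (8.86% of all genes had both), and in 6 of 8 SNI-NP replicate 1 came next (3.62% of all genes had all 3). The exceptions were *Glrb*, for which SNI-NP replicate 1 was the lowest library, and *Gphn*, for which it was the second highest. Summed over the 9 genes, the level was 728, 265 and 526 CPM in the sham libraries and 436.5, 299.8 and 294 CPM in the SNI-NP libraries. The sum therefore differed 2.75-fold between 2 libraries of the sham group.

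*Mog* and *Mobp* had a similar order. Their summed level was 458, 148.5 and 263 CPM in the sham libraries and 205, 166 and 156 CPM in the SNI-NP libraries. Expressed as a percentage of this sum, *Slc6a5* was at 49.6, 44.2 and 57.2% in the sham libraries and at 60.9, 50.9 and 49.7% in the SNI-NP libraries. Its spread between the highest and the lowest library was then 1.38-fold, in place of 3.46-fold in CPM. For *Slc12a5* the percentages were 34.3, 33.6 and 41.95% in sham and 51.2, 38.8 and 36.3% in SNI-NP rats, a spread of 1.52-fold in place of 3.14-fold. *Gphn* spread 2.28-fold against the sum, in place of 1.58-fold in CPM. Scaled to these 2 genes, which were chosen after the values were seen, 0 of the 8 genes had an unadjusted p-value under 0.05 in edgeR. Of all 14426 genes, 259 did, 23 of them lower. A negative log2 fold change was found for 3 of 8 (*Gad2*, *Glra1* and *Glrb*), against 11.8% of all genes. The standard error of *Glrb* was 0.547 there, in place of 0.207. Scaled to the summed neuron list, 0 of the 8 were again past that threshold, which 21 of 14426 genes passed as lower. The same 3 were negative, against 9.19% of all genes. The log2 fold changes were -0.37 for *Glra1*, -0.14 for *Glrb* and -0.14 for *Gad2*, and from 0.05 to 0.47 for the other 5. The neuron list was lowest in SNI-NP replicate 1 (3173 CPM, against 6193 to 8892 CPM elsewhere), as was the ganglion list (126 CPM). This scaling does not separate cord neurons from ganglion neurons. The scaling to *Mog* and *Mobp* moved the median of all genes by 0.457 and that to the neuron list by 0.51 on the log2 scale, and all 8 genes were below the median of all genes there, which was 0.463 and 0.516. The part of central tissue content in the differences between the groups was not tested.

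**Figure D3:**
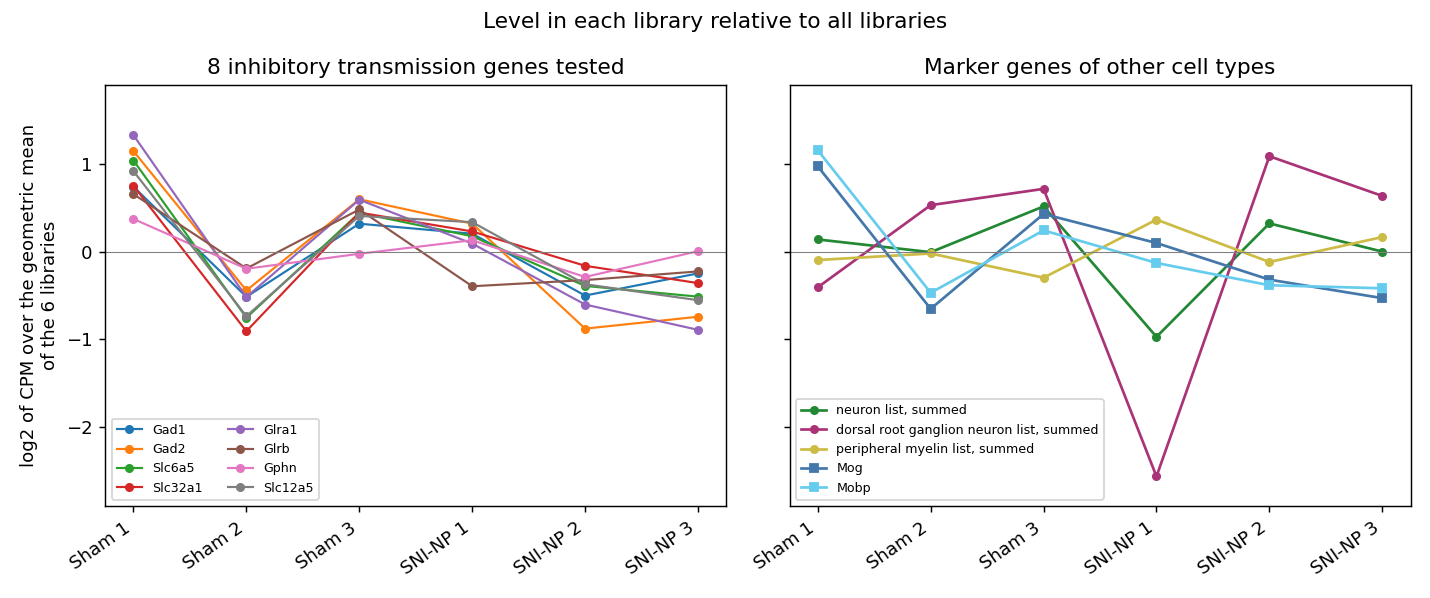
Level in each library relative to the geometric mean of the 6 libraries, on a log2 axis, for the 8 tested genes (left) and for *Mog*, *Mobp* and summed marker lists (right); the lines only join the points of a gene or list. Most of the 8 genes and both *Mog* and *Mobp* are high in Sham replicates 1 and 3 and low in Sham replicate 2, whereas the ganglion list is low in SNI-NP replicate 1 and Sham replicate 1.

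Outside the 9 genes, the 5 whose log2 CPM was most like the mean standardised profile of the 8 were *Fam168a*, *Cx3cl1* (the chemokine fractalkine, made by neurons), *Kcnk9* (a two-pore potassium channel), *Psd2* and *Nova1* (a neuronal splicing factor). Their Pearson correlations with the profile were 0.998 to 0.999 over the 6 libraries, which share depth and tissue content between genes, and 1.39% of all genes tested had a correlation above 0.95. *Kcnk9* was at 18.19, 5.58 and 12.3 CPM in the sham libraries and at 9.26, 6.05 and 6.20 CPM in the SNI-NP libraries, and *Psd2* at 65.9, 22.7 and 46.2 CPM and at 37.8, 25.8 and 25.3 CPM. *Fam168a* covered a smaller range, from 112 to 164 CPM, and was also highest in Sham replicate 1 and lowest in Sham replicate 2.

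Ratios between genes of the same library do not depend on the scaling of libraries, and 8 pairs were compared by a two-sided exact permutation test of the log2 ratio, for which 3 libraries against 3 allow no p below 0.1. The ratio of *Slc6a5* to *Slc32a1*, in counts per kilobase, was 1.25, 1.14 and 1.02 in the sham libraries and 0.990, 0.877 and 0.923 in the SNI-NP libraries. Every SNI-NP library was below every sham library, so that relative to the shared vesicular transporter the glycine transporter was lower by 0.29 on the log2 scale (exact permutation p = 0.1, the smallest possible, adjusted p = 0.4 over the 8 pairs). *Glrb* relative to *Gphn* was 2.19, 1.81 and 2.56 in sham and 1.25, 1.76 and 1.54 in SNI-NP rats. These groups did not overlap either, with a difference of -0.53 on the log2 scale (exact permutation p = 0.1, adjusted p = 0.4).

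*Gad1* relative to *Gad2* was 1.98, 2.50 and 2.16 in the sham libraries and 2.42, 3.41 and 3.70 in the SNI-NP libraries. SNI-NP replicates 2 and 3 were above all sham libraries and replicate 1 was inside their range, with a difference of 0.50 on the log2 scale (exact permutation p = 0.2, adjusted p = 0.4). The ratio of *Slc12a5* to *Slc12a2*, the chloride extruder to the chloride importer NKCC1, was 0.868, 0.285 and 0.795 in sham and 0.645, 0.619 and 0.343 in SNI-NP rats. The lowest ratio belonged to a sham library, and the difference of -0.17 on the log2 scale was smaller than the spread (exact permutation p = 0.6, adjusted p = 0.6). *Slc32a1* relative to *Slc17a6*, the vesicular glutamate transporter gene of excitatory neurons and of many sensory neurons, was 2.07, 0.946 and 1.68 in sham and 2.86, 2.06 and 1.78 in SNI-NP rats, with overlapping groups (difference 0.56 on the log2 scale, exact permutation p = 0.3, adjusted p = 0.48). *Slc17a6* itself was at 34.8 to 50.1 CPM in sham and at 25.3, 26.8 and 27.0 CPM in SNI-NP rats, with no overlap (-0.77 ± 0.16, log2 ± SE, adjusted p = 0.307 in edgeR). The other 3 pairs, *Glra1* to *Glrb*, *Gad1* to *Slc32a1* and *Slc6a5* to *Slc6a9*, overlapped between the groups, with differences of -0.31, -0.17 and -0.20 on the log2 scale.

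**Figure D4:**
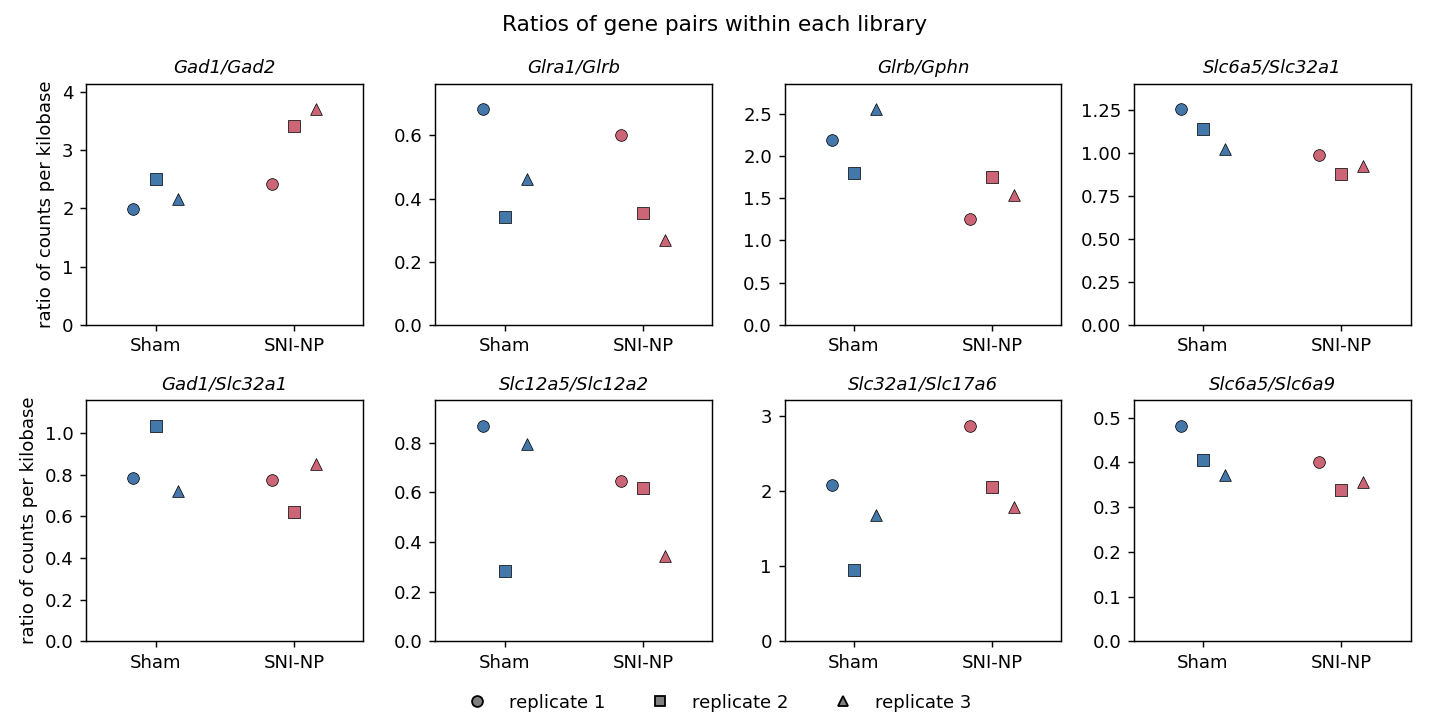
Ratio of counts per kilobase for the 8 gene pairs in each library, on linear axes from 0; circles, squares and triangles are replicates 1, 2 and 3. The groups do not overlap for *Glrb*/*Gphn* and *Slc6a5*/*Slc32a1*, and they overlap for the other 6 pairs.

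Gene length differed within these pairs. The length implied by the counts and FPKM values was 7.06 kb for *Slc6a5* and 2.38 kb for *Slc32a1*, 5.56 kb for *Gad2* and 3.29 kb for *Gad1*, and 3.71 kb for *Glrb* and 2.59 kb for *Gphn*. Over all genes, the 4808 longest (2.96 kb and more) had a median log2 fold change of -0.04 and the 4809 shortest (up to 1.76 kb) one of 0.02. With a correction for length in each library, the log2 fold change of *Slc6a5* was -0.41 and that of *Slc32a1* -0.30, that of *Gad2* -0.75 and that of *Gad1* -0.35, and that of *Glrb* -0.57 and that of *Gphn* -0.08. The gap between the fitted values of *Slc6a5* and *Slc32a1* was thus -0.30 without and -0.12 with the correction. For *Slc12a5* (3.36 kb) and *Slc12a2* (6.40 kb) the corrected values were -0.41 and -0.01, and the gap was -0.29 without and -0.40 with the correction. *Glra1*, a short transcript of 1.82 kb, was at -1.05. With this correction 1 of the 8, *Glrb*, was past the unadjusted threshold, against 4.91% of all genes that were lower there.

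Other genes of inhibitory transmission were taken from lists. Of 60 genes in 9 lists, 50 were tested, 31 had a negative and 19 a positive log2 fold change, and the median was -0.10, beside 49.1% negative and a median of 0.01 over all genes. None of the 50 passed the adjusted threshold. At an unadjusted p-value under 0.05, 0 were lower and 1 was higher (*Slc12a4*), against 5.94% and 4.91% of all genes. The groups did not overlap for 2 that were lower and 2 that were higher, against 8.15% and 10.4% of all genes. *Slc12a4*, a potassium-chloride cotransporter gene of many cell types, was at 116, 122 and 102 CPM in sham and at 139.8, 134 and 131 CPM in SNI-NP rats (0.25 ± 0.10, log2 ± SE, adjusted p = 0.445 in edgeR).

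Among receptors and uptake, *Glra2*, the alpha subunit gene used mainly before birth, was at 2.44 ± 0.867 CPM in sham and 2.15 ± 0.707 CPM in SNI-NP rats (SD over 3 libraries each), and *Glra4* had 0 to 5 counts per library and was not tested. The 5 uptake genes were split, with 2 negative and 3 positive values. The most abundant of them per length was *Slc6a13*, a GABA transporter gene that is also a marker of meningeal cells, at 79.9 ± 20.1 and 108.6 ± 14.8 CPM (SD over 3 libraries each), a fitted change of 0.44 ± 0.19 (log2 ± SE, adjusted p = 0.467 in edgeR). *Slc6a9*, 1 of the 2 with a negative value, was close to it, at a mean of 42.8 against 43.5 FPKM. Its fitted change was -0.41 ± 0.36 (log2 ± SE, adjusted p = 0.677 in edgeR). Both genes of GABA breakdown had negative values, and *Abat*, the GABA transaminase, was at 217 ± 37.2 and 204 ± 28.2 CPM in the respective groups. *Gcsh*, of the glycine cleavage system, *Glul*, the glutamine synthetase of astrocytes, *Gabarap*, a GABA-A receptor-associated protein, and *Gabbr1*, a GABA-B receptor subunit, had log2 fold changes of -0.07, -0.17, 0.14 and -0.09, each the most abundant gene of its list. Of 11 genes for chloride handling, 8 were negative and 3 positive, and *Slc12a2* was at -0.20 ± 0.20 (log2 ± SE), which became -0.01 with the length correction or without SNI-NP replicate 2.

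Transcription factors of inhibitory neurons were at low levels, and some had too few counts to be tested. Of 11 listed, 7 were tested, with a median log2 fold change of -0.16 and 0 past the unadjusted threshold. *Gata2*, a factor of ventral inhibitory neurons that is also used outside the cord, was the most abundant at 2.70 FPKM. *Pax2*, the factor that marks most dorsal inhibitory neurons, was at 6.12, 2.14 and 3.20 CPM in sham and at 3.57, 2.39 and 2.44 CPM in SNI-NP rats, which placed Sham replicate 1 highest and Sham replicate 2 lowest, as for 4 of the 8 tested genes.

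Markers of other cells are given beside these values. At an unadjusted p-value under 0.05 in edgeR, 5.94% of all genes were lower and 4.91% were higher. Of 12 neuron genes, 5 were lower at that threshold. Their log2 fold changes were mixed, 10 negative and 2 positive, from -1.22 to 0.20 (median -0.39). The summed level of the 12, 6193 to 8892 CPM in sham and 3173 to 7775 CPM in SNI-NP rats, was lowest in SNI-NP replicate 1. The 9 ganglion genes had a median of 0.03 and 0 past that threshold, and the 3 peripheral myelin genes had positive values, with 1 past it (*Prx*) and sums of 5251 to 6359 CPM in sham and 5946 to 8311 CPM in SNI-NP rats. Of 7 oligodendrocyte genes, 0 passed (median -0.44, sums of 30535 to 41197 and 30217 to 40270 CPM), and of 7 astrocyte genes 1 did, *Slc1a2*, which was lower (median -0.20, sums of 3694 to 5177 and 3690 to 5019 CPM). The oligodendrocyte sums were mostly *Mbp* (25760 to 34303 CPM), also a gene of Schwann cells, and the astrocyte sums mostly *S100b* (2861 to 3806 CPM). Of 5 tested motor neuron genes 0 passed (median -0.65). Their sums of 304.6 to 486 and 165 to 753.5 CPM were mostly *Prph* (130 to 722 CPM), a gene also used by ganglion neurons, whereas the cholinergic genes *Chat*, *Slc18a3* and *Slc5a7* had log2 fold changes of -0.65, -0.72 and -0.96. Of 8 microglia genes 0 passed (median -0.06, sums of 342 to 504 and 403 to 426 CPM). Of 5 tested genes of excitatory neurons, 1 was lower, *Slc17a6*, and the list median was -0.28. The 3 tested blood genes had a median of 0.95, 2 of them past the threshold, with sums of 400.4 to 906 CPM in sham and 818 to 1912 CPM in SNI-NP rats, and of 4 tested fibroblast and meningeal genes 1 passed, *Col1a1*, which was higher (sums of 2742 to 3935 and 3644 to 4545 CPM). The part of these cells in the values of the 9 genes was not tested.

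**Figure D5:**
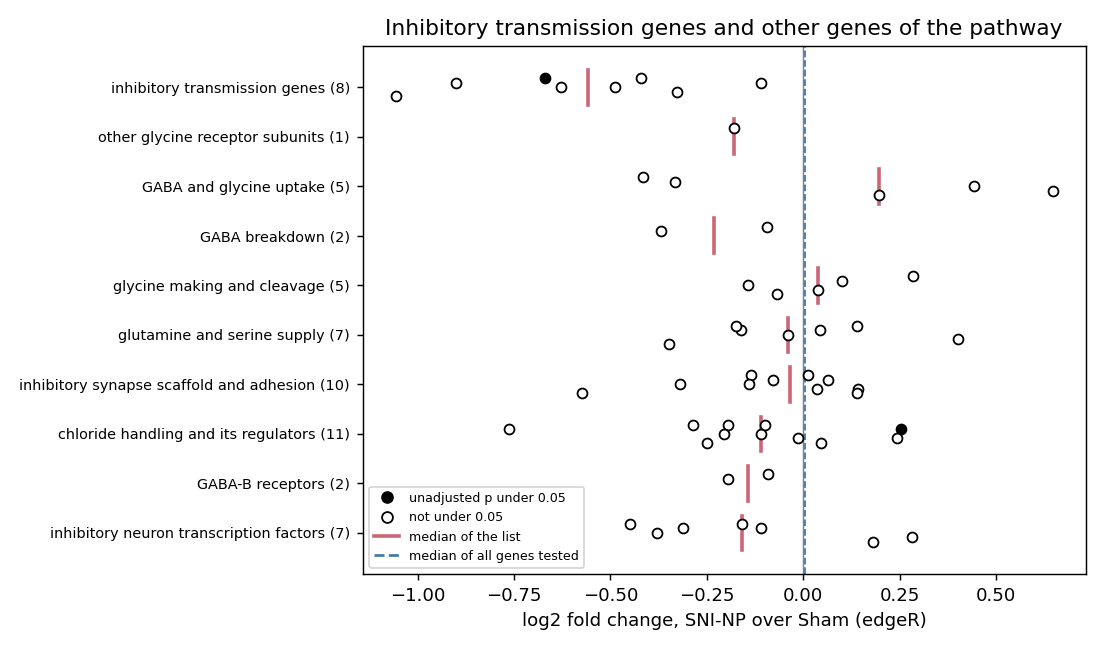
Log2 fold change, SNI-NP over sham, of the 8 tested genes (top row) and of 50 other genes in 9 lists, with the number tested in brackets; filled points have an unadjusted p-value under 0.05, red marks are list medians and the dashed line is the median of all genes tested. All 8 genes of the top row are left of 0 with a median of -0.56, and the list medians below lie between -0.23 and 0.20.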

How the data were processed

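RNA-seq of tissue labelled spinal cord was analysed in 3 sham and 3 SNI-NP libraries, grouped by the sample labels. The authors mapped reads to a genome they call Rat6 and kept unique sequences, and the submitters' processing notes name FastQC, STAR and HTSeq; versions, annotation release and use of strand are not given in the sources used here, so overlapping antisense transcripts could not be told apart. Per gene, the authors deposited estimated counts, not normalized, and FPKM values. Of 22050 genes, 9.15% had fractional counts, none of the 9 among them. The FPKM values were used for levels per length and for gene length.

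Counts were rounded, filtered with filterByExpr, scaled by TMM and tested with edgeR version 4.0.16 (R version 4.3.3), condition being the single term, with Benjamini-Hochberg adjustment over 14426 genes. The study names DESeq2, which was run as an alternative (version 1.42.0). Further alternatives were other scalings and filters, a block on replicate number, offsets by a loess fit on length (span 0.5) and leaving out each library. Same-numbered libraries had correlations of 0.214, -0.143 and 0.0538 over all genes tested, and differently numbered ones -0.244 to 0.222. The numbers thus gave no clear pairing over all genes, which does not exclude one. The edgeR test, with and without length offsets, and DESeq2 were run on counts simulated from the mean levels and edgeR's own dispersions. DESeq2 had a larger share of false calls there than edgeR. No differences in tissue content were simulated, so the tests were not checked under such differences. A count of 0 was read as at most 3 counts.

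The 9 genes and the lists were chosen with earlier results of these data known, and some genes of the lists are not reported here. Named genes were the 9, any listed pathway gene with an unadjusted p-value under 0.05, the most abundant of each list per length and the 5 most similar profiles; *Pax2*, *Kcnk9*, *Psd2*, *Prx*, *Prph*, *Chat*, *Slc18a3*, *Slc5a7*, *Slc1a2* and *Col1a1* were given values or named after these were seen. *Glra1*/*Glra3* could not be formed as a ratio, since *Glra3* had libraries with 0 counts. Promoters came from RefSeq (GRCr8), a different build from that of the counts.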

Additional observations from a re-analysis of the deposited data

How the results depend on the processing

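Under every fit that kept all 6 libraries and scaled them by TMM, RLE or upper-quartile factors, the 8 tested genes had negative log2 fold changes, and 0 of the 8 passed the adjusted threshold in any fit tried. The number with an unadjusted p-value under 0.05 was 1, and it was 2 under RLE factors and with no filter, 3 with DESeq2, 0 when scaled to the neuron list or to *Mog* and *Mobp* (added after the values were seen), and 1 to 7 when single libraries were left out (7 without Sham replicate 2, 3 without SNI-NP replicate 1). With the replicate block it was 3, and with length offsets and the replicate block 3, and the block changed no adjusted call. With the block alone, the standard error fell from 0.451 to 0.200 for *Gad2* and from 0.207 to 0.193 for *Glrb*. Whether the numbers pair the libraries was not settled. The number of genes with a negative value was 8. It was 7 without Sham replicate 1, 9 with no filter, where *Glra3* was included, and 3 under either of the 2 marker scalings. Of all genes, 9.19% were negative when scaled to the neuron list and 11.8% when scaled to *Mog* and *Mobp*. Of all genes, 0 passed the adjusted threshold in edgeR (1565 had an unadjusted p-value under 0.05), against 210 with DESeq2, 55 scaled to the neuron list, 33 scaled to *Mog* and *Mobp* and 0 to 222 with single libraries left out (Sham replicate 2 gave 2 and SNI-NP replicate 1 gave 222). The cause was not tested. Of all genes past the unadjusted threshold, 54.8% were lower, and 35.2% with length offsets, 72.8% without SNI-NP replicate 1, 66% with the replicate block, 4.65% scaled to the neuron list and 8.88% scaled to *Mog* and *Mobp*.

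Signs turned in these settings. Scaled to the neuron list, the log2 fold change was 0.242 for *Gad1*, 0.046 for *Slc6a5*, 0.328 for *Slc32a1*, 0.470 for *Gphn*, 0.216 for *Slc12a5*, 0.491 for *Abat*, 0.510 for *Gabbr1*, 0.484 for *Gcsh*, 0.485 for *Glra2*, 0.336 for *Glul*, 0.376 for *Slc12a2* and 0.232 for *Slc6a9*. Scaled to *Mog* and *Mobp*, it was 0.222 for *Gad1*, 0.097 for *Slc6a5*, 0.373 for *Slc32a1*, 0.427 for *Gphn*, 0.201 for *Slc12a5*, 0.419 for *Abat*, 0.441 for *Gabbr1*, 0.449 for *Gcsh*, 0.431 for *Glra2*, 0.287 for *Glul*, 0.239 for *Slc12a2* and 0.273 for *Slc6a9*. With single libraries left out, values ranged from -0.228 to 0.049 for *Gphn*, -0.207 to 0.031 for *Abat* and -0.467 to 0.062 for *Glra2*, each highest without Sham replicate 1. *Slc17a6* was past the adjusted threshold in DESeq2 (-0.776). Of the 8 gene ratios, the difference for *Slc12a5* to *Slc12a2* ranged from -0.69 to 0.12 with single libraries left out, and the other 7 kept their sign. Depth limits what can be said of *Glra3*.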
